A study of Homo sapiens with 12 samples.

Results

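The response of wild type A549 cells to TGFβ was measured by RNA sequencing in 6 libraries, 3 from untreated cells and 3 from cells given 10 ng/mL TGFβ in complete medium for 5 days. A549 is a human lung adenocarcinoma line of epithelial character. The cells were grown in RPMI-1640 with 10% fetal bovine serum, antibiotics and non-essential amino acids, so serum was present in both groups. The series holds 12 libraries: the other 6 come from a derivative of A549 in which the site in SNAI1 that is targeted by the microRNA miR-22 was knocked out, again 3 untreated and 3 treated. Every gene whose deposited value reached 10 or more in 3 or more libraries of the 12 was taken, which left 20456 genes of 58830 entries in the table. A value is a read count divided by a size factor for its library and is called a normalized count below. A log2 fold change is the mean of log2(value + 1) in the 3 treated libraries minus that in the 3 untreated ones, its ± is a standard error, and a gene is said to have risen or fallen where limma's test, adjusted by the Benjamini-Hochberg method over all 20456 genes, gave a value under 0.05. The labels name 3 biological repeats a group but do not say that they were separate cultures, so the p-values measure the spread between these libraries, which may be technical.

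TGFβ is a secreted cytokine that is held in the matrix by latency proteins and, once released, joins a type II and a type I receptor serine kinase. The type I receptor phosphorylates SMAD2 and SMAD3, which enter the nucleus with SMAD4 and act with other factors on target genes, among them inhibitors that damp the signal. In epithelial cells the pathway is known for epithelial to mesenchymal transition, in which cells lose junction proteins, gain contractile actin bundles and secrete a collagen-rich matrix. A549 cells are widely used for this transition, and they also carry a constantly active NRF2 antioxidant programme, because their KEAP1 gene is mutated, and make mucins and liver-type plasma proteins.

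The 6 libraries held 84698578 to 109676392 reads in the table. Treated and untreated libraries separated along the first principal component of the 6, which held 79.4% of the variance, and log2 values correlated at 0.985 to 0.989 within a group and 0.927 to 0.932 between groups. The second component held 6.69% and spread the treated libraries, with treated replicate 1 at 50 and treated replicate 3 at -37.3. Mitochondrially encoded transcripts took 2.54 to 2.83% of the untreated totals and 3.79, 3.22 and 2.73% of the treated ones. The epithelial keratins KRT8 and KRT18, the main pair of simple epithelia, were high in every library, and the alveolar type II markers were uneven. The surfactant gene SFTPA1 was at 0 in all 6, SFTPB and SFTPC were at no more than 3.36 and NKX2-1 at 2.15 to 25.2, whereas NAPSA was at 87 to 157, LAMP3 at 218 to 408, ABCA3 at 485 to 1508 and ETV5 at 4592 to 6152. The list of alveolar type II markers counted here leaves out NKX2-1 and also holds SFTPD, SLC34A2 and LPCAT1. Of its 7 tested members 4 rose and 1 fell, beside 30.8% and 30.9% of all genes. Markers of other cell types are given further on. In such bulk libraries a change in the share of cells that express a gene cannot be told apart from a change in RNA per cell.

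TGFβ moved most of the detected transcriptome in both directions. Of the 20456 genes, 6297 rose (30.8%) and 6327 fell (30.9%), and the median log2 fold change of all genes was 0.02. Counts of list members that rose or fell, given below, are to be read beside these shares. At least 2-fold rises numbered 3090 (15.1%) and at least 2-fold falls 2015 (9.85%). After quantile normalization, which moved the median of all genes by -0.14, these counts were 2533 and 2490. Rises were the larger changes: 341 genes rose at least 16-fold and 133 fell as much, and past 64-fold the counts were 87 and 16. The 3 treated libraries did not overlap the 3 untreated ones for 13125 genes (64.2%). There were 66 genes under 10 in every untreated library and over 100 in every treated one, and 25 of the reverse kind. The genes that rose at least 2-fold together took 3.55% of the untreated and 14.4% of the treated normalized total, and those that fell as much went from 11.5% to 3.63%.

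**Figure D1:**
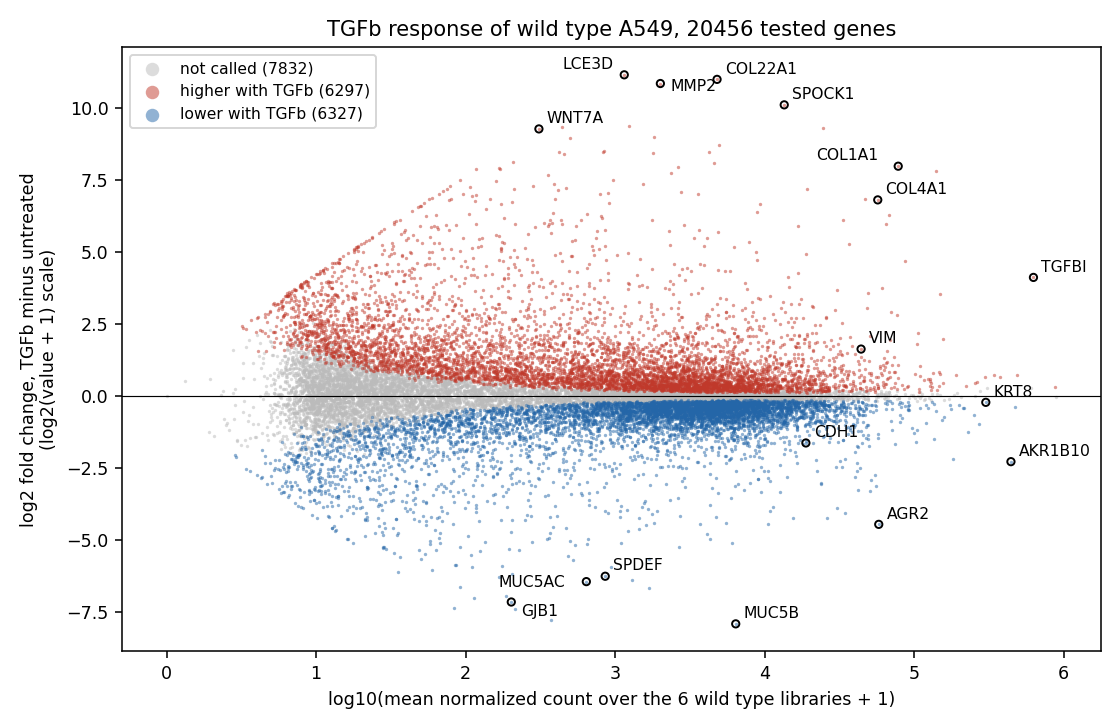
Each point is 1 of the 20456 tested genes, with the log10 of its mean normalized count over the 6 wild type libraries (plus 1) across and its log2 fold change (TGFβ minus untreated) up; red points rose, blue points fell and grey points were not called. The 6297 rises reach beyond 10 on the log2 scale (LCE3D, COL22A1, MMP2, SPOCK1), further than any of the 6327 falls, of which MUC5B lies lowest.

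Some genes that are often read as markers of this response showed its range. COL1A1, on chromosome 17 (GRCh38.p14, 50184101 to 50201631), encodes the α1 chain of type I collagen, the main fibre of scar and stroma. Its normalized counts were 628, 548.7 and 686 untreated and 152026, 155661 and 160225 with TGFβ (log2 fold change 7.98 ± 0.09, adjusted p = 3.4e-19). The treated libraries lay far over the untreated ones and close to each other. MMP2, a gelatinase that cuts basement membrane collagen (chromosome 16, 55478830 to 55506691), stood at 3.99, 0 and 1.07 untreated and 4034, 4319.7 and 3681 with TGFβ (10.84 ± 0.38, adjusted p = 5.6e-13). It was close to absent in all untreated libraries and alike in the 3 treated ones. CDH1, the E-cadherin of epithelial adherens junctions (chromosome 16, 68737292 to 68835537), gave 26688, 30328 and 28606 untreated and 9000.1, 9375 and 9325 with TGFβ (-1.63 ± 0.06, adjusted p = 9.3e-13). It fell in all 3 libraries but stayed abundant. MUC5B, a gel-forming airway mucin (chromosome 11, 1223066 to 1262172), gave 11329, 12992 and 13972 untreated and 59.4, 41.2 and 58 with TGFβ (-7.90 ± 0.13, adjusted p = 5.6e-17), the largest fall of all tested genes. The groups did not overlap for any of the 4.

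**Figure D2:**
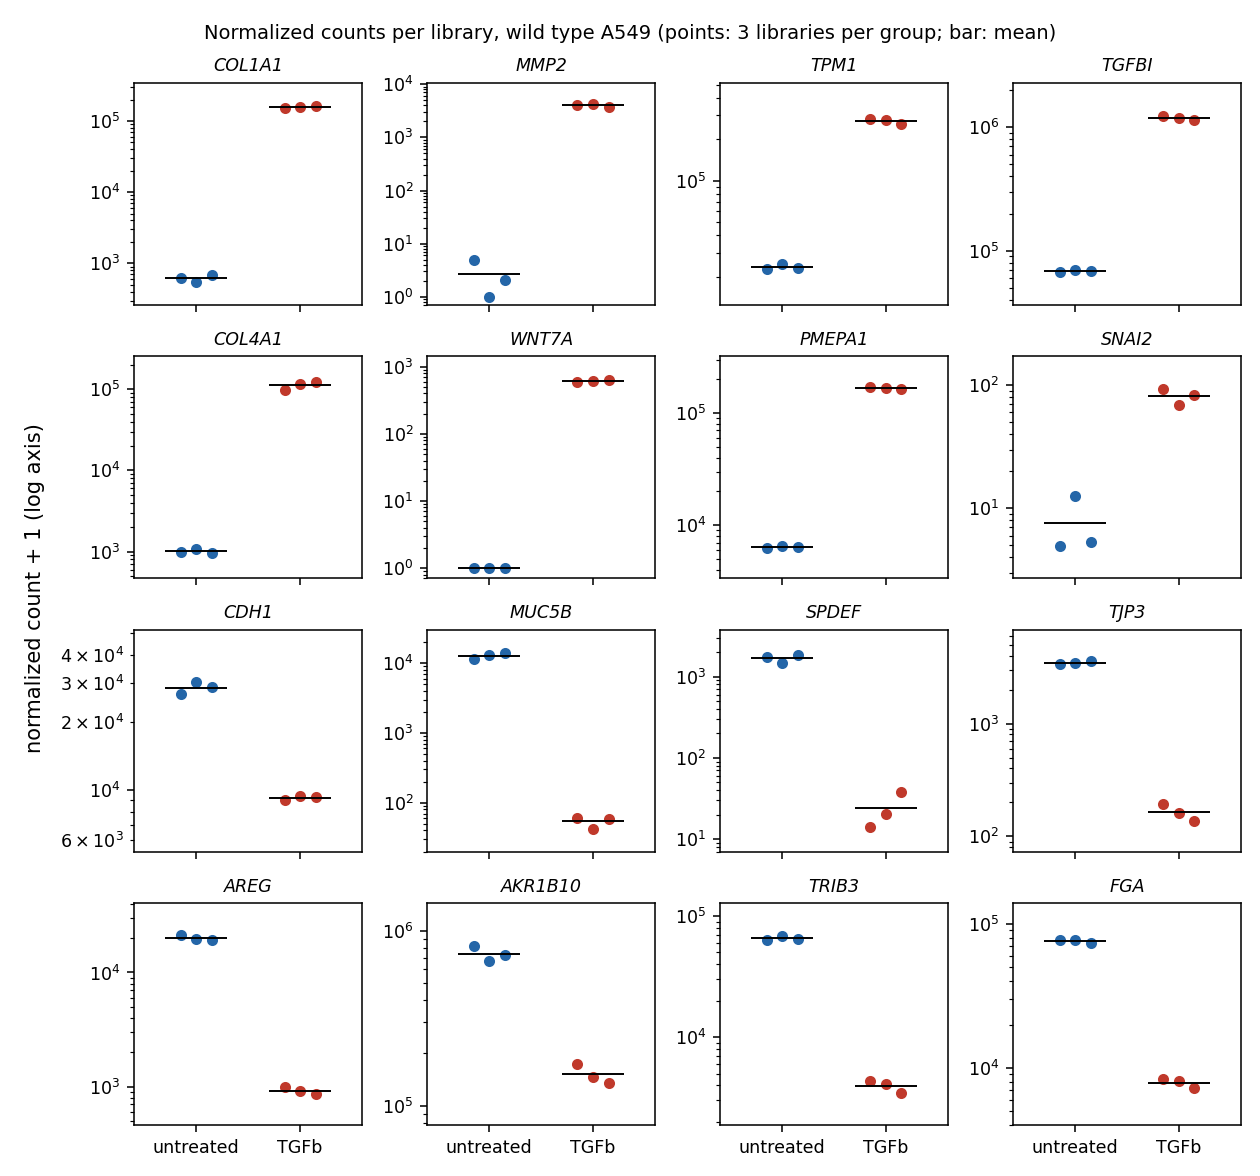
Normalized counts (plus 1, log axis) of 16 genes in each of the 3 untreated and 3 treated wild type libraries; each point is a library. For each gene the treated points stand clear of the untreated ones, upwards for COL1A1, MMP2, TPM1, TGFBI, COL4A1, WNT7A, PMEPA1 and SNAI2 and downwards for CDH1, MUC5B, SPDEF, TJP3, AREG, AKR1B10, TRIB3 and FGA.

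The largest rises by log2 fold change were in genes with under 100 normalized counts in every untreated library. LCE3D, a cornified envelope gene of the skin, was at 0 in all 3 untreated libraries and at 2817, 2239.9 and 1843 with TGFβ, at least 794-fold higher against a floor of 3 reads per library. WNT7A, a secreted WNT ligand, was at 0 in the untreated libraries too and at 596, 613 and 640.5 in the treated ones, at least 213-fold higher. Both genes were thus seen in the treated libraries alone. COL22A1, a collagen of tissue junctions, gave 9.97, 0 and 8.59 untreated and 8823, 10131 and 9865 with TGFβ (10.99 ± 0.59). SPOCK1, a secreted matrix proteoglycan, gave 26.9, 14.8 and 32.2 untreated and 24539, 27043 and 29511 with TGFβ (10.10 ± 0.24), and COL5A1, which nucleates collagen fibrils, gave 65.8, 75.8 and 91.3 untreated and 42389, 51143 and 53565 with TGFβ (9.29 ± 0.14). For these 3 genes the treated libraries lay close together and the spread was in the few untreated reads. The other large rises were SLN, a small inhibitor of the muscle calcium pump, at 17.9, 0 and 17.2 untreated and 4278, 3508 and 3054 with TGFβ (9.0 ± 0.76), the enamel matrix gene C4orf26 (9.35 ± 0.33), R3HDML (8.52 ± 0.45), LCE3E (8.48 ± 0.40) and the growth factor-like genes IGFL2 (8.94 ± 0.46) and IGFL3. IGFL3 had 2 untreated and 2760 treated reads, a ratio of 1382 with a 95% counting interval of 382 to 11420.2. LCE3 and IGFL genes have near-identical neighbours, so reads can be split between copies and their counts are uncertain.

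Besides MUC5B, the largest falls by log2 fold change included the following genes. ADH4, a liver alcohol dehydrogenase, gave 449, 443 and 373 untreated and 4.4, 1.92 and 0 with TGFβ (-7.39 ± 0.43). GJB1, the connexin of liver gap junctions, gave 426, 366 and 406 untreated and 0, 1.92 and 6.72 with TGFβ (-7.14 ± 0.73). Both ended at a few reads a library. SLC51B, a subunit of the basolateral bile acid exporter, gave 3415, 3311 and 3353 untreated and 29.7, 42.2 and 26.9 with TGFβ (-6.66 ± 0.15), and NR1H4, the bile acid receptor FXR, gave 237, 236 and 169.7 untreated and 8.79, 0 and 3.36 with TGFβ (-5.93 ± 0.54). MYO1A, a myosin of the intestinal brush border, gave 2372, 2956 and 2361 untreated and 29.7, 24 and 37 with TGFβ (-6.37 ± 0.17). With TGFβ, SLC51B and MYO1A were at 24 to 42.2 in each library, while NR1H4 was under 10. ERICH4 (-6.92 ± 0.56) and the mucin sialyltransferase ST6GALNAC1 (-6.29 ± 0.50) fell by like amounts.

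The genes with the largest gains and losses in mean count were others. Shares of the total count depend on transcript length as well as on molecules. TGFBI, a matrix protein named for its induction by TGFβ, went from 67148, 70046 and 68243 to 1233925, 1192859 and 1139915 normalized counts (4.12 ± 0.07), or from 0.0749% to 1.28% of the total. TPM1, an actin-binding tropomyosin, went from 22608, 24970 and 23034 to 282483, 278041 and 260301 (3.54 ± 0.06, adjusted p = 1.5e-16). Treated and untreated libraries were far apart for both. Smaller proportional rises gave large gains in ACTG1 (0.74 ± 0.09), ACTB (0.66 ± 0.09), FLNA (1.97 ± 0.11), ANXA2 (0.73 ± 0.09) and the retinal dehydrogenase ALDH1A1 (0.31 ± 0.09). The rise of ALDH1A1 was not called after quantile normalization (0.12). The largest losses were in AKR1B10, a reductase of aldehydes and retinal, which went from 816946, 668378 and 724125 to 174419, 147190 and 135921 (-2.27 ± 0.11), or 0.804% to 0.164% of the total. PTP4A1, a phosphatase (-2.18 ± 0.07), the thioredoxin reductase TXNRD1 (-1.26 ± 0.06), the ferritin light chain FTL (-0.96 ± 0.10), the pentose phosphate enzyme PGD (-1.49 ± 0.07), GAPDH (-0.65 ± 0.09) and the disulfide isomerase AGR2 (-4.45 ± 0.09) followed, and the mitochondrial rRNA MT-RNR2 fell less in proportion (-0.37 ± 0.11). ACTB, ACTG1, FTL and GAPDH have many processed copies in the genome, and how reads shared with them were counted is not stated in the labels or headers.

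Among ligands and latency proteins of the pathway, 6 of 8 tested members rose and 0 fell, with a median log2 fold change of 1.95. TGFB1 itself went from 1971, 1666 and 2029 to 9717, 8682 and 7841 (2.21 ± 0.10). LTBP2 (4.34 ± 0.08), LTBP3 (3.77 ± 0.05) and LTBP4 (2.46 ± 0.08), which tether latent TGFβ to fibres, rose in every treated library, LTBP2 and LTBP3 the most. Of the 13 receptors tested, 5 rose and 5 fell (median 0.04), beside 30.8% and 30.9% of all genes. TGFBR1, the type I kinase, went from 7658, 7275 and 7905 to 82873, 90696 and 96684 (3.56 ± 0.07), while its partner TGFBR2 went from 17073, 17580 and 17195 to 8024, 8416 and 8934 (-1.03 ± 0.06). The type I receptor thus rose and the type II receptor fell in every treated library. The co-receptor TGFBR3 (-2.35 ± 0.13) and the activin receptor ACVR1B (-0.90 ± 0.05) fell too, and the BMP receptors BMPR2 (1.97 ± 0.11) and ACVR1 (1.23 ± 0.06) rose.

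The signal transducers mostly fell. Of 6 SMAD genes, 1 rose and 5 fell (median -0.69). SMAD3 went from 18652, 19353 and 19165 to 36725, 39378 and 40160 (1.02 ± 0.05) and SMAD2, which carries the same signal, from 29226, 29376 and 28425 to 13445, 13054 and 12559 (-1.16 ± 0.05). SMAD5 (-0.76 ± 0.09) and SMAD9 (-2.45 ± 0.12), transducers of BMP, fell. The feedback inhibitors went the other way: 9 of 12 tested members rose and 2 fell, with a median log2 fold change of 0.93. PMEPA1, which keeps SMADs from the receptor, went from 6318, 6542 and 6445 to 169749, 167708 and 163553 (4.70 ± 0.06), and SMAD7, the inhibitory SMAD, from 1358, 1461 and 1412 to 7737, 7555 and 7094 (2.40 ± 0.06). Their treated libraries lay within a narrow band far over the untreated ones. LDLRAD4 (2.23 ± 0.11) and the ubiquitin ligase SMURF2 (1.90 ± 0.06) rose as well, whereas NEDD4L, a ligase for activated SMADs, fell (-1.16 ± 0.05) and the corepressor TGIF1 fell slightly (-0.31 ± 0.05).

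Of genes of BMP and activin signalling, 9 of 20 tested members rose and 8 fell, beside 30.8% and 30.9% of all genes. The median log2 fold change of this list was -0.03. INHBB, the activin βB chain, went from 7192, 7090.3 and 7020.1 to 343, 302 and 332 (-4.44 ± 0.07) and GDF15, a stress cytokine of the family, from 19700, 18181 and 19834 to 2763, 2459.5 and 2274 (-2.95 ± 0.08). Both genes fell far below every untreated library. The BMP antagonist NOG (4.87 ± 0.28), the procollagen protease BMP1 (2.71 ± 0.05), BMP6 (2.56 ± 0.08) and FSTL1 (2.32 ± 0.06) rose. The antagonist GREM1, chosen after its values were seen, was at 0 in every untreated library and at 124, 138 and 156 with TGFβ, at least 48.2-fold higher.

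Collagen genes rose, but not uniformly. Of the fibrillar collagens, 6 of 9 tested members rose and 2 fell, with a median log2 fold change of 1.56, beside a median of 0.02 for all genes. COL11A2 (2.19 ± 0.23) and COL27A1 (2.47 ± 0.11) rose with COL1A1 and COL5A1, and COL5A3, a minor type V chain, went from 345, 464 and 457 to 144, 141 and 124 (-1.61 ± 0.15). COL1A2, which pairs with COL1A1 in type I collagen and was chosen after its values were seen, stood at 1.99, 1.65 and 0 untreated and 4.4, 3.84 and 6.72 with TGFβ. It was called higher (adjusted p = 0.036) but held only a few reads in any library. COL3A1, the main chain of type III collagen and also chosen after its values were seen, was at 66.8, 68.4 and 39.7 untreated and 57.2, 80.5 and 63 with TGFβ and was not called (0.22 ± 0.33, adjusted p = 0.59). Among the other collagens, 17 of 23 tested members rose and 3 fell, with a median log2 fold change of 1.36. COL15A1, of basement membrane zones, went from 22.9, 9.89 and 6.45 to 766, 876 and 923 (6.10 ± 0.48). COL21A1 (-0.68 ± 0.22) and COL26A1 (-0.52 ± 0.13) fell, COL21A1 by a call that was lost without treated replicate 2 (-0.44) or untreated replicate 3 (-0.54).

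Both main chains of type IV collagen, the network of basement membranes, rose by similar factors. COL4A1 (chromosome 13, 110148963 to 110307157) gave 994, 1078 and 949 untreated and 97550, 117655 and 124554 with TGFβ (6.81 ± 0.08). COL4A2 (chromosome 13, 110307284 to 110513209) gave 1678, 1747 and 1791 untreated and 122183, 136892 and 146347 with TGFβ (6.28 ± 0.07). In both the 3 treated libraries kept the same order, with replicate 1 lowest and replicate 3 highest. The 2 genes lie head to head and are read outwards from starts with 126 bases between them, so these bases are shared by both promoters. They are shown, chosen after the values were seen, from RefSeq on the forward strand of GRCh38.p14 (chr13:110307158-110307283), all in lower case since none of the motifs searched (listed further on) was found in them. Of these bases 80.2% are G or C, and CG occurs 20 times.
COL4A1/COL4A2: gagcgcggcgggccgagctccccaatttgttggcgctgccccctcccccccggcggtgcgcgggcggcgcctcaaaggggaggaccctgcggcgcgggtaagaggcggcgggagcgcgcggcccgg

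Enzymes that modify and export collagen followed the collagens: 16 of 25 tested members rose and 4 fell, with a median log2 fold change of 0.72. LOX, which cross-links collagen and elastin, went from 173, 120.3 and 138 to 2709.5, 2695 and 2568 (4.22 ± 0.16), LOXL2 from 457, 449 and 458 to 9332, 9544 and 9189 (4.36 ± 0.09) and the prolyl hydroxylase subunit P4HA3 from 366, 420.2 and 338 to 16573, 15553 and 14081 (5.36 ± 0.08). No treated library of these came near an untreated one. LOXL4 rose too (3.55 ± 0.15). The collagen chaperone SERPINH1 (-0.36 ± 0.08) and the secretory regulator CREB3L1 (-2.20 ± 0.22) fell.

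Of matrix glycoproteins, 21 of 32 tested members rose and 3 fell, with a median log2 fold change of 1.30. SPARC, a collagen-binding protein of remodelling matrix, went from 31.9, 26.4 and 10.7 to 4788, 5311 and 3914 (7.72 ± 0.30), and IGFBP7 from 124, 85.7 and 106 to 3159, 2862 and 2443 (4.74 ± 0.20). Falls were VTN, the plasma adhesion protein vitronectin, from 2897, 3202 and 3070.1 to 142, 152 and 118 (-4.47 ± 0.11), and the basement membrane linker NID2 (-1.43 ± 0.18). Of the metalloproteinases and their inhibitors, 15 of 18 tested members rose and 2 fell, with a median log2 fold change of 1.73. The collagenase MMP1 (4.53 ± 0.43) and the stromelysin MMP10 (4.90 ± 0.20) rose with MMP2, and so did the inhibitor TIMP3, from 36.9, 47 and 4.3 to 5493, 5205 and 4938 (7.94 ± 0.54). Proteases and an inhibitor of them rose side by side. MMP7, the epithelial matrilysin, fell (-0.73 ± 0.12), as did MMP24 (-1.36 ± 0.06). Of 8 plasminogen activation genes, 7 rose and 1 fell (median 2.47). The activators PLAU, or urokinase (2.92 ± 0.06), and PLAT, or tissue plasminogen activator (4.10 ± 0.22), rose by less than their inhibitor SERPINE2, which went from 1047, 905 and 896 to 69017, 67564 and 60219 (6.11 ± 0.07). SERPINI1, a serpin of neurons, fell (-1.19 ± 0.12).

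Matrix receptors rose with the matrix. Among the integrins, 15 of 20 tested members rose and 2 fell, with a median log2 fold change of 1.04. ITGA11, a collagen receptor of mesenchymal cells, went from 23.9, 27.2 and 53.7 to 8228, 9061 and 10177 (8.08 ± 0.22), and ITGB6, part of the epithelial integrin that releases latent TGFβ, from 355, 342 and 314 to 11082, 11858 and 13593 (5.17 ± 0.08). Every treated library stood far over the untreated ones. The collagen receptor ITGA2 rose (3.21 ± 0.15) and ITGB5 fell (-0.49 ± 0.07). Of laminins, the main glycoproteins of basement membranes, 4 of 11 tested members rose and 3 fell, with a median log2 fold change of 0.21, shares near the 30.8% and 30.9% of all genes. LAMB3, a chain of an epithelial laminin trimer, went from 8691, 8965 and 8872 to 19311, 19519 and 18266 (1.11 ± 0.05), but LAMA3, a chain of the same trimer, from 1833, 2018 and 2030.3 to 1232, 1292 and 1568 (-0.53 ± 0.10). These chains of 1 trimer therefore moved apart. LAMB1 fell (-0.55 ± 0.07) and LAMC1 rose (0.77 ± 0.09).

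Actin and contractile genes rose broadly: 24 of 30 tested members rose and 2 fell, with a median log2 fold change of 1.22. TAGLN, a smooth muscle actin-binding protein, went from 173, 263 and 147 to 2905, 2692 and 2479 (3.82 ± 0.16). TNS1, of focal and fibrillar adhesions (3.28 ± 0.14), and the non-muscle myosin MYH9 (2.07 ± 0.11) rose beside TPM1. MYLK, the myosin light chain kinase, fell (-1.28 ± 0.09). The myofibroblast actin ACTA2, chosen after its values were seen, moved less, from 437, 486 and 433 to 829, 806 and 725 (0.80 ± 0.10).

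Most transcription factors of the transition rose, but by unequal amounts. Of 21 tested, 16 rose and 2 fell (median 1.08). SNAI1, the zinc finger repressor that miR-22 targets, went from 510.4, 400.4 and 576 to 958, 897 and 768 (0.83 ± 0.13, adjusted p = 3.2e-05). SNAI2 went from 3.99, 11.5 and 4.3 to 91.2, 68.1 and 82.4 (3.55 ± 0.37). Both rose without overlap, SNAI2 by far more in proportion and to a lower count. ZEB1, a repressor of epithelial genes, went from 2837, 2828 and 2872 to 3050.2, 3869 and 4446 (0.40 ± 0.10), a small rise, and ZEB2 and SNAI3 rose from traces (1.92 ± 0.58 and 1.08 ± 0.38). The call for SNAI3 was lost in 4 of the settings tried, among them without treated replicate 3 (1.0) or untreated replicate 2 (0.66). TWIST1 was at 200.4, 179 and 190.1 untreated and 201, 128 and 202 with TGFβ and was not called (-0.13 ± 0.18, adjusted p = 0.55), and TWIST2 fell from 735, 737 and 653 to 447, 436 and 398 (-0.73 ± 0.11). The factors RUNX1 (2.84 ± 0.10), ETS2 (2.73 ± 0.05) and SOX4 (1.84 ± 0.06) rose, and FOXC1 fell (-2.07 ± 0.07).

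Factors that keep epithelial identity fell, with 1 exception among those called. Of 13 tested, 1 rose and 10 fell (median -1.05). SPDEF, the factor of goblet and other mucus cells, went from 1746, 1487 and 1843 to 13.2, 19.2 and 37 (-6.25 ± 0.26), EHF from 2614, 2915 and 2734 to 167, 115 and 161 (-4.23 ± 0.12) and KLF5 from 41582, 32955 and 41433 to 6434, 6358 and 6452 (-2.58 ± 0.09). SPDEF was nearly lost and the others reduced without overlap. TP63, the master factor of basal and squamous cells, went the other way, from 1098, 976 and 1048 to 6408, 6982 and 7902 (2.76 ± 0.10). Among endodermal and lung lineage factors, 6 rose and 11 fell of 21 (median -0.42). HNF4A, a master factor of hepatocytes and enterocytes, went from 10630, 10228 and 10463 to 32843, 31754 and 30939 (1.61 ± 0.05). GATA6 (1.75 ± 0.10) and ONECUT2 (2.47 ± 0.13) also rose. The foregut factor SOX2 fell from 555, 547 and 553 to 96.7, 109 and 122 (-2.33 ± 0.23).

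Cadherins switched in part. Among adherens junction and desmosome genes, 15 of 24 tested members rose and 8 fell, with a median log2 fold change of 0.52. CDH11 of mesenchymal cells went from 933, 887 and 1098 to 9690.4, 10301 and 10229 (3.38 ± 0.08), CDH4 from 7.98, 15.7 and 6.45 to 658, 707 and 786 (6.11 ± 0.26) and CDH6 from 32.9, 32.1 and 34.4 to 1018, 952 and 1031 (4.87 ± 0.13). These cadherins rose in every treated library while CDH1 fell. The gut cadherin CDH17 fell (-1.29 ± 0.08) and nectin 4, listed as PVRL4, rose (2.87 ± 0.12). Of tight junction and polarity genes, 10 of 31 tested members rose and 13 fell, beside 30.8% and 30.9% of all genes. The median log2 fold change of this list was 0.12, and it became -0.10 where a value of at least 50 was required of tested genes. TJP3, a junction scaffold, went from 3370.5, 3433 and 3594 to 193, 160.1 and 136 (-4.41 ± 0.12) and its relative TJP1 from 33829, 41257 and 36520 to 44926, 55789 and 64802 (0.56 ± 0.11). The 2 scaffolds moved in opposite directions. CLDN4 (3.06 ± 0.14), CLDN2 (1.59 ± 0.09) and CGNL1 (2.30 ± 0.13) rose and PARD6B fell (-1.60 ± 0.15).

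Keratins, the intermediate filaments of epithelia, fell more often than they rose: 4 of 16 tested members rose and 9 fell, with a median log2 fold change of -0.38. KRT4, of wet stratified epithelium, went from 2029, 1655 and 1858 to 29.7, 24 and 36.1 (-5.92 ± 0.27). KRT7 went from 48633, 51735 and 50287 to 116148, 103869 and 95343 (1.06 ± 0.07), and KRT17 (2.88 ± 0.28) and KRT80 (1.38 ± 0.12) rose as well. Members of the family therefore moved both ways. KRT20, an intestinal keratin chosen after its values were seen, went from 183, 134 and 176 to 0 in all 3 treated libraries, at least 56.8-fold lower. KRT19 fell (-1.26 ± 0.42) by a call that was lost without treated replicate 2 (-1.15) or untreated replicate 1 (-1.10).

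**Figure D3:**
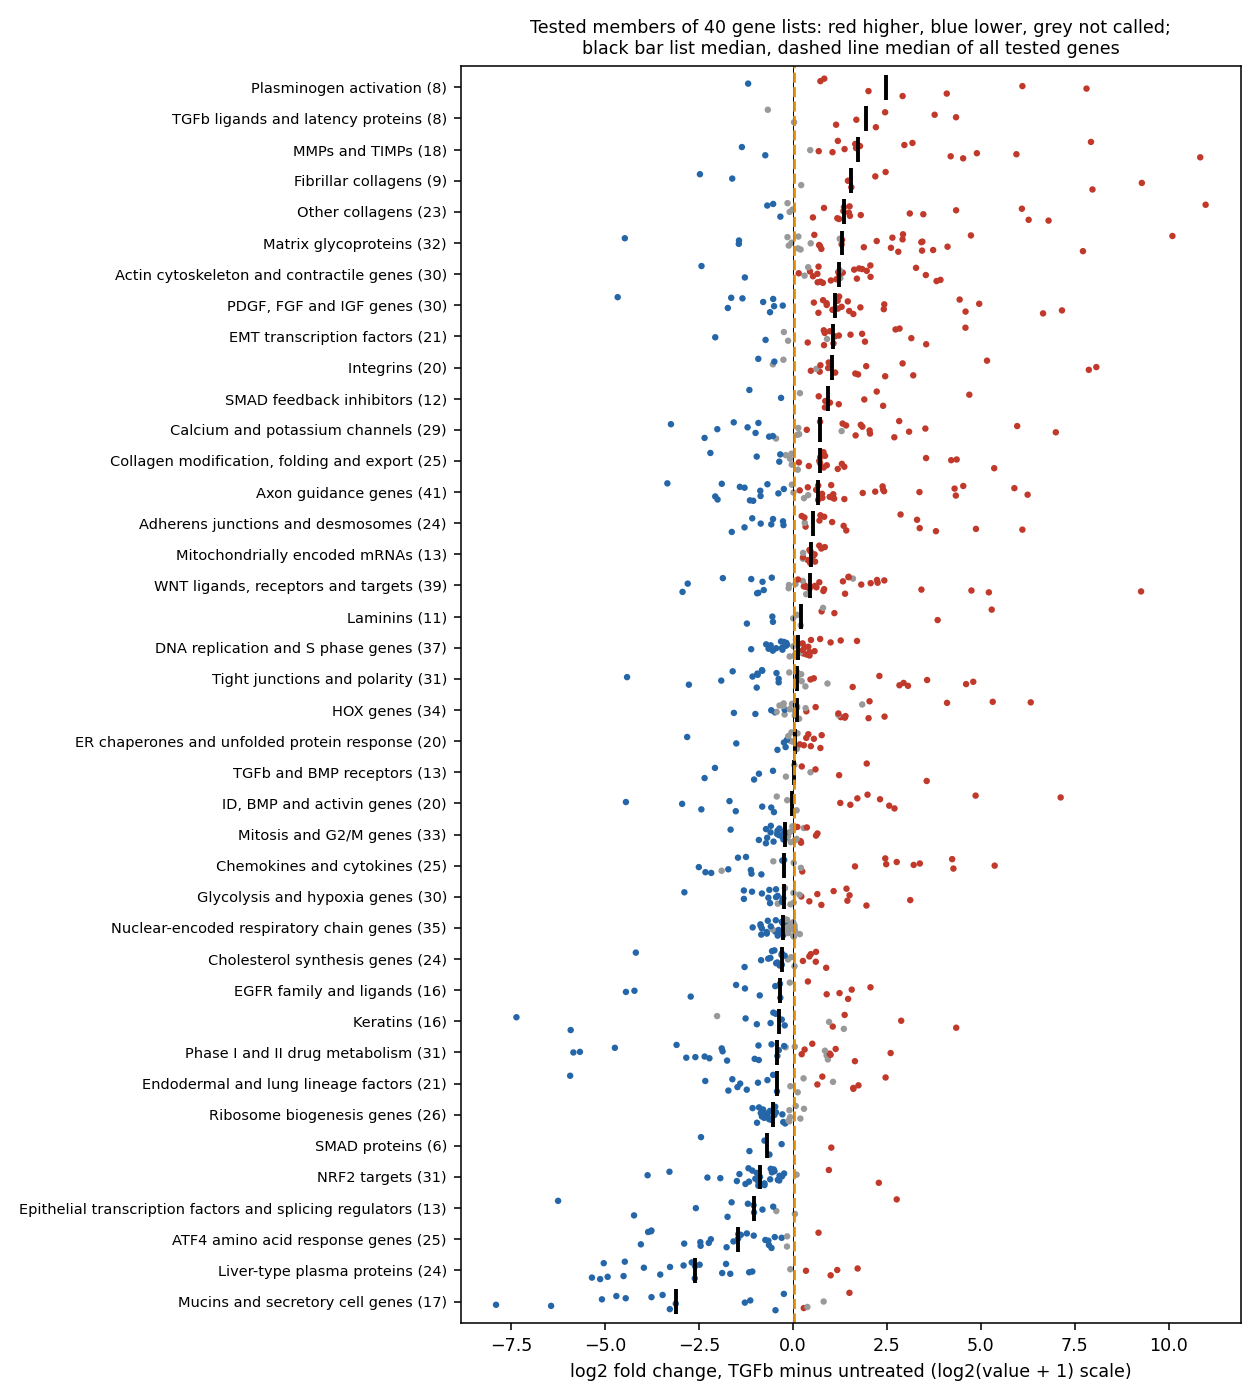
Each row is 1 of 40 gene lists and each point the log2 fold change of 1 tested member in wild type cells, with the median of the list as a bar. Medians run from -3.12 for mucins and secretory cell genes to 2.47 for plasminogen activation, beside 0.02 for all tested genes.

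Secretory genes gave the lowest median of the 40 lists: 2 of 17 tested members rose and 13 fell, with a median log2 fold change of -3.12. MUC5AC, the other gel-forming airway mucin, went from 1194, 1209 and 1399.7 to 8.79, 15.3 and 18.5 (-6.44 ± 0.28). The membrane mucin MUC13 went from 11510, 11520 and 11283 to 1503, 1167 and 1303 (-3.12 ± 0.09) and AGR2, which folds mucins in the endoplasmic reticulum, from 116728, 111844 and 104205 to 5892, 5035 and 4392 (-4.45 ± 0.09). All 3 fell without overlap. TFF3, a peptide secreted with mucus and chosen after its values were seen, went from 29.9, 39.5 and 30.1 to 0 in all treated libraries, at least 11.4-fold lower. MUC3A rose slightly (0.29 ± 0.11), by a call that was lost in 5 of the settings tried, among them without treated replicate 1 (0.21) and without untreated replicate 1 (0.21) or 3 (0.26), and its groups overlapped. Of the 248 called genes named here by rule it is the only one for which they did. Most of these genes were chosen for large changes, and the groups did not overlap for 64.2% of all tested genes.

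Liver-type plasma proteins fell in a similar way: 4 of 24 tested members rose and 19 fell, with a median log2 fold change of -2.61. RBP4, the retinol carrier, went from 883, 967 and 1039.9 to 28.6, 36.4 and 21.9 (-5.03 ± 0.17), SERPINA6, the cortisol carrier, from 2192, 2308 and 2259 to 181, 155 and 104 (-3.97 ± 0.16) and the plasma glycoprotein AHSG from 447, 409 and 472 to 13.2, 3.84 and 17.6 (-5.35 ± 0.53). The carriers were thus cut to a small share of their untreated level. The acute phase inhibitor SERPINA3 (1.18 ± 0.10) and the protein C inhibitor SERPINA5 (1.72 ± 0.22) rose. Most genes of this list thus fell while HNF4A rose.

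NRF2 target genes, which supply glutathione, NADPH and detoxifying reductases, fell almost throughout: 2 of 31 tested members rose and 28 fell, with a median log2 fold change of -0.88. GPX2, a glutathione peroxidase of epithelia, went from 105095, 77647 and 91180 to 11286, 8616 and 8257 (-3.29 ± 0.13). ALDH3A1, an aldehyde dehydrogenase, went from 61253, 53481 and 56951 to 4835, 3825 and 3247 (-3.87 ± 0.11). PGD, which makes NADPH, went from 213702, 192645 and 199257 to 76957, 72446 and 66263 (-1.49 ± 0.07). All 3 fell without overlap. HMOX1, the haem oxygenase, went from 3190, 3019.5 and 3448 to 17497, 16106 and 13743 (2.29 ± 0.09) and CBR3 rose (0.96 ± 0.25), so these 2 genes moved against the list.

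NRF2 binds an antioxidant response element, searched here as TGACNNNGC on both strands. The window from 250 bases before to 50 bases after the RefSeq start was at hand for 20 of the NRF2 targets, and 8 of them (40%) held the element: GCLM, TXNRD1, PGD, ME1, GPX2, CBR1, EPHX1 and PIR. All 20 had a negative log2 fold change, the 8 with the element (-3.29 to -0.51) and the 12 without it (-1.93 to -0.29) alike. The element was held by 19.2% of 11866 tested genes with a window and by 16.1% of 27305 genes in all. A gene with several starts was counted where any of its windows held the motif. Genes with more starts thus had more chances to be counted. The promoters of the 3 members with the largest falls are shown because they place the element beside the start of a gene whose fall is given above. They are the 250 bases before the start and the first base of the gene (GRCh38.p14), 5′ to 3′ on the strand of the gene, with each match to the element in capitals. A match is a description of the letters and not a binding site. GPX2 lies at chr14:64942745-64942995 on the reverse strand with its match 122 bases before the start, PGD at chr1:10398814-10399064 on the forward strand with its match 201 bases before it, and the first start of TXNRD1 at chr12:104215529-104215779 on the forward strand with matches 99 and 8 bases before it.
GPX2: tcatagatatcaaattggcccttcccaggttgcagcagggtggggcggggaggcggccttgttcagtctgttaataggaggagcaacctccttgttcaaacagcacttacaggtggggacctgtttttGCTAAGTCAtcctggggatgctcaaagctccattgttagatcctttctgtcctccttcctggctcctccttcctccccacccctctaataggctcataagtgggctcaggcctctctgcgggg
PGD: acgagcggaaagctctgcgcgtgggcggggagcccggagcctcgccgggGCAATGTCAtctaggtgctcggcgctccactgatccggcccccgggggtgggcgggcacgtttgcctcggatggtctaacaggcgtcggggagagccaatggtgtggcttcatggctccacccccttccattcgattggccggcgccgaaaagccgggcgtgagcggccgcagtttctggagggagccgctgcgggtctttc
TXNRD1: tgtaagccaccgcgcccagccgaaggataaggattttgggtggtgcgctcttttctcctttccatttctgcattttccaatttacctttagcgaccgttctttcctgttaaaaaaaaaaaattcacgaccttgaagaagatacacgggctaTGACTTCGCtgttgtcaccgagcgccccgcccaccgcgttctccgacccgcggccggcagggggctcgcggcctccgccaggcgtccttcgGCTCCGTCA

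Other short motifs were also counted in these windows on both strands. Shares are again of genes with a match in any of their windows. The E2 box bound by SNAI and ZEB proteins, CAGGTG, was held by 28.6% of 1680 genes that rose at least 2-fold. It was held by 26.1% of 1102 genes that fell as much and 24.6% of all tested genes with a window. The AP-1 element TGANTCA was in 11.8%, 9.53% and 7.64%. The TEAD element CATTCC was in 16.7%, 18.7% and 15.5%. The palindromic SMAD element GTCTAGAC was rare in all of them, at 0.238%, 0.272% and 0.253%. In proportion to the tested genes, the AP-1 share stood furthest apart in the genes that rose. In percentage points the E2 box share stood about as far apart. Over all 27305 genes with a window the AP-1 share was 9.37% and the E2 box share 24.1%. The windows cover promoters near a start and no distant enhancers. The tables used here hold no window for COL1A1, MMP2, CDH1, MUC5B or ALDH3A1.

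Drug-metabolizing enzymes fell more often than they rose: 8 of 31 tested members rose and 18 fell, with a median log2 fold change of -0.41. ADH6 went from 3201, 3744 and 3008 to 84.6, 62.3 and 49.6 (-5.67 ± 0.17), the glutathione transferase GSTA1 from 708, 793 and 621 to 33, 21.1 and 23.5 (-4.74 ± 0.28) and the leukotriene hydroxylase CYP4F3 from 17593, 18915 and 18730 to 2369, 2619.6 and 2748 (-2.84 ± 0.07). The esterase CES1 fell as well (-3.10 ± 0.68). Rises were UGT2B7, which conjugates steroids and drugs (2.60 ± 0.12), and ALDH1A3, which makes retinoic acid (1.14 ± 0.08). CYP4F and UGT genes have close copies, so reads can be shared.

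Genes of the amino acid response that ATF4 drives fell almost all: 1 of 25 tested members rose and 22 fell, with a median log2 fold change of -1.45. TRIB3, a pseudokinase that limits ATF4, went from 62928, 68619 and 64464 to 4341, 4099 and 3467 (-4.05 ± 0.08). The secreted glycoprotein STC2 went from 21487, 21407 and 21160 to 1558, 1673 and 1233 (-3.85 ± 0.14) and CTH, which makes cysteine, from 8089.7, 7933 and 8108 to 597, 565 and 595 (-3.78 ± 0.09). All 3 fell to a small share of their untreated level. NUPR1 fell too (-3.77 ± 0.16), and VLDLR alone rose (0.68 ± 0.06). Of ER chaperone genes, the other arm of the stress response, 8 of 20 tested members rose and 6 fell, beside 30.8% and 30.9% of all genes. The median log2 fold change of this list was 0.05. XBP1, a factor of the unfolded protein response, went from 72212, 69949 and 69949 to 10938, 10357 and 8967 (-2.81 ± 0.07), and DNAJB9 fell (-1.51 ± 0.08). The chaperone HSPA5, or BiP, fell by less (-0.41 ± 0.07), while calreticulin, CALR (0.73 ± 0.07), and EDEM1 (0.77 ± 0.07) rose.

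Genes of lipid and sugar metabolism moved in both directions, beside 30.8% rises and 30.9% falls over all genes. At least 2-fold changes were 0 rises and 2 falls among cholesterol synthesis genes and 6 rises and 4 falls among glycolysis and hypoxia genes. Of all genes 15.1% rose and 9.85% fell as much. Of cholesterol synthesis genes, 6 of 24 tested members rose and 15 fell, with a median log2 fold change of -0.30. HMGCS1, an early enzyme of the pathway, went from 17116, 16927 and 16706 to 6724, 6819 and 7286 (-1.29 ± 0.06). Of glycolysis and hypoxia genes, 10 of 30 tested members rose and 14 fell, with a median log2 fold change of -0.23. The glucose transporter SLC2A1 went from 4186, 4414 and 4426 to 18161, 17699 and 14957 (1.96 ± 0.07) and PFKFB4, which sets the level of a glycolytic activator, from 258, 220.0 and 237 to 1969, 1843 and 2493 (3.12 ± 0.11). CA9, a hypoxia-induced carbonic anhydrase, went from 635, 382 and 607 to 102, 76.7 and 44.5 (-2.89 ± 0.30). Genes known to respond to hypoxia therefore moved both ways.

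Cell cycle genes mostly changed by small factors. Of DNA replication and S phase genes, 15 of 37 tested members rose and 13 fell, beside 30.8% and 30.9% of all genes. The median log2 fold change of this list was 0.12. The cyclins CCNE1 (1.71 ± 0.09) and CCNE2 (1.27 ± 0.16) and the methylation reader UHRF1 (1.0 ± 0.07) rose, and the replication factor C subunits RFC3 (-1.11 ± 0.09) and RFC4 (-0.65 ± 0.08) and RRM2 (-0.71 ± 0.07) fell. Of mitotic genes, 6 of 33 tested members rose and 18 fell, with a median log2 fold change of -0.20, and the rises numbered 3 in the fit on wild type libraries alone, without treated replicate 2 and without untreated replicate 3. The phosphatase CDC25B went from 27140, 27190 and 27419 to 8887, 8782 and 8248 (-1.66 ± 0.05), and CDK1 (-0.72 ± 0.08) and AURKA (-0.91 ± 0.06) fell by under 2-fold. Ribosome biogenesis genes fell without a rise: 0 of 26 tested members rose and 19 fell, with a median log2 fold change of -0.53. DDX21, an RNA helicase of the nucleolus, went from 46643, 51406 and 48212 to 20537, 23826 and 25388 (-1.07 ± 0.07), with NOP58 (-0.95 ± 0.07), BYSL (-0.90 ± 0.08) and WDR12 (-0.85 ± 0.05).

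The mitochondrial and nuclear genes of the respiratory chain moved in opposite directions. Of mitochondrially encoded mRNAs, 11 of 13 tested members rose and 0 fell, with a median log2 fold change of 0.47. MT-ATP8 went from 14539, 12902 and 13413 to 29312, 22992 and 21861 (0.85 ± 0.09) and MT-ATP6 from 116141, 98328 and 115826 to 227255, 184498 and 152505 (0.76 ± 0.12). Treated replicate 1 was highest and treated replicate 3 lowest in both, the order of the mitochondrial share of these libraries given above, whose part in the result was not tested. MT-ND2 (0.59 ± 0.12) and MT-CYB (0.70 ± 0.12) rose too. Of nuclear-encoded respiratory chain genes, 0 of 35 tested members rose and 19 fell, with a median log2 fold change of -0.26. SDHD went from 10399, 8488 and 9478 to 4925, 4486 and 4088 (-1.07 ± 0.09), and CYC1 (-0.86 ± 0.09), UQCRFS1 (-0.86 ± 0.08) and NDUFA9 (-0.84 ± 0.10) fell.

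Genes of secreted signals moved in both directions, as did all genes, of which 30.8% rose and 30.9% fell. Of chemokines and cytokines, 10 of 25 tested members rose and 11 fell, with a median log2 fold change of -0.23. CCL2, which draws monocytes, went from 2015, 1489.6 and 1450.2 to 35108, 29694 and 30289 (4.27 ± 0.10), IL11, a fibrogenic cytokine, from 1614, 1649 and 1618 to 17588, 16293 and 16985 (3.38 ± 0.06) and IL1A from 30.9, 20.6 and 19.3 to 967, 1041 and 986 (5.37 ± 0.37). These rose without overlap, as did IL32 (2.76 ± 0.10) and IL6 (2.48 ± 0.29). CXCL8 rose slightly (0.25 ± 0.09), by a call that was lost without treated replicate 1 (0.24) or 2 (0.24) or untreated replicate 2 (0.22) or 3 (0.19). The neutrophil chemokine CXCL5, chosen after its values were seen, went from 77338, 59267 and 72424 to 14009, 14043 and 13356 (-2.33 ± 0.10). Among EGFR family genes, 6 of 16 tested members rose and 9 fell, with a median log2 fold change of -0.34. The ligands AREG and EREG went from 21476, 19801 and 19097 to 1001, 909 and 863 (-4.44 ± 0.09) and from 48769, 49239 and 50903 to 2432, 2639 and 2958 (-4.22 ± 0.09). The ligands HBEGF (1.57 ± 0.08) and NRG1 (2.07 ± 0.06), rose, as did the receptor EGFR (1.47 ± 0.12), and ERBB3 fell (-2.72 ± 0.07).

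Of PDGF, FGF and IGF genes, 21 of 30 tested members rose and 9 fell, with a median log2 fold change of 1.12. PDGFB, a mitogen of mesenchymal cells, went from 197, 167 and 185 to 19194, 18126 and 18440 (6.66 ± 0.14), FGF1 from 1.99, 7.41 and 6.45 to 806, 855 and 799 (7.16 ± 0.39) and IGF2 from 99.7, 60.1 and 69.8 to 2469, 2307 and 2308 (4.96 ± 0.25). All 3 ligands came from low levels. HGF, the ligand of MET, went from 2591, 2182 and 2287 to 92.3, 83.4 and 100.0 (-4.66 ± 0.12), and KITLG (-1.64 ± 0.11) and VEGFC (-1.34 ± 0.09) fell. Of WNT genes, 24 of 39 tested members rose and 9 fell, with a median log2 fold change of 0.44. WNT5B went from 38.9, 33 and 34.4 to 1600.4, 1304 and 1179 (5.22 ± 0.26), with WNT9A (4.75 ± 0.35) and WNT11 (3.42 ± 0.26). The WNT antagonist DKK1 (-2.80 ± 0.09) and the receptor ligase RNF43 (-1.86 ± 0.06) fell.

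Lists of axon guidance, HOX and channel genes moved in both directions, as did all genes, of which 30.8% rose and 30.9% fell. Of axon guidance genes, 24 of 41 tested members rose and 13 fell, with a median log2 fold change of 0.67. The receptor EPHB2 went from 549.3, 554 and 546 to 33249, 31972 and 33211 (5.90 ± 0.07), SEMA7A, a membrane semaphorin, from 36.9, 18.9 and 10.7 to 1695, 1557 and 1477 (6.25 ± 0.29) and the guidance ligand SLIT3 from 327, 309 and 342 to 7267, 7706 and 7766 (4.54 ± 0.09). The treated libraries stood far over the untreated ones for all 3. EPHA4 rose (4.31 ± 0.21), and SEMA4G (-2.07 ± 0.11) and SEMA3D (-2.0 ± 0.17) fell. Of HOX genes, which give positional identity, 12 of 34 tested members rose and 5 fell, with a median log2 fold change of 0.11. HOXD10 went from 5.98, 18.9 and 27.9 to 1289, 1232 and 1325 (6.33 ± 0.35) and HOXA5, needed for lung development, from 396, 397 and 357 to 2359, 2146 and 1783 (2.44 ± 0.10). HOXA2 rose (2.01 ± 0.16), and HOXB2 (-1.57 ± 0.21), HOXB3 (-0.48 ± 0.09) and HOXB7 (-0.58 ± 0.09) fell. Of calcium and potassium channel genes, 15 of 29 tested members rose and 9 fell, with a median log2 fold change of 0.72. KCNMA1, the large-conductance potassium channel, went from 12, 9.06 and 12.9 to 1473, 1479.5 and 1741 (7.0 ± 0.17), and KCNH1 from 3.99, 6.59 and 6.45 to 298, 427 and 544 (5.97 ± 0.68). KCNJ15 (3.53 ± 0.09) and KCNN4 (3.09 ± 0.28) rose, and CACNA1D (-2.35 ± 0.14) and KCNJ2 (-2.01 ± 0.17) fell.

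Markers of other cell types were read in the same way, with sums over all listed markers, tested or not. Of 6 fibroblast markers tested, 5 rose, and the summed level of the list went from 202 to 252 untreated to between 1318 and 1507 with TGFβ. LUM (89.8 to 129, then 703 to 860) and PDGFRA (12.9 to 21.9, then 335 to 456) were the main part of it, while DCN was at 6.6 or less. Of 3 tested endothelial markers, 1 rose and 1 fell, with sums of 115 to 160 and of 41.2 to 87.4. TEK rose from 0 in all untreated libraries to 31.9, 10.5 and 37 with TGFβ. PECAM1 fell from 92.7 to 114 to at most 3.36, and CDH5 was at 6.59 or less. Of 4 tested leukocyte markers, 3 fell, with sums of 337 to 423 and of 243 to 288, most of it ITGAM (259 to 335, then 163 to 239) and CD14 (47 to 74.1, then 43.7 to 74.7), while PTPRC was at 15 or less and CD3E at 1.65 or less. Of 6 tested neuron markers 3 rose and 3 fell, and the sums of that list were far higher, 13568 to 14720 and 18307 to 20212. Among them RBFOX3 fell from 2006 to 2063 to between 118 and 164, SNAP25 from 4173 to 4465 to between 2011 and 2121, and MAP2 rose from 4984 to 5861 to between 10722 and 13563. The libraries are labelled as A549 cells only, and which cells these transcripts came from was not tested.

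Some of the largest changes lay side by side on a chromosome. Neighbours were read along 15779 tested genes with a RefSeq position, and a run was 3 or more adjacent genes that all rose, or all fell, at least 4-fold. There were 28 runs of rises and 12 of falls, with 141 genes. These runs were chosen on the wild type contrast and are a description. HOXD13, HOXD11, HOXD10 and HOXD9 rose together on chromosome 2 (176087487 to 176124937) by 2.04, 5.32, 6.33 and 4.10 on the log2 scale. The oxidase genes DUOX2, DUOXA2 and DUOXA1 rose on chromosome 15 (45092650 to 45129879) by 4.09, 3.81 and 4.15. IL1A, IL1B and IL36G, cytokines of the IL-1 family, rose on chromosome 2 (112773925 to 112985658) by 5.37, 3.22 and 2.40. These 3 runs join genes of related function. Mean untreated counts were under 10 for HOXD11, HOXD9, IL1B, IL36G, DUOX2, DUOXA2 and DUOXA1, so their log2 values depend on the pseudocount. DUOXA2 reached a mean of only 13.6 with TGFβ.

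An imprinted stretch of chromosome 14 (100537147 to 101072937) held a run of 5, in which the non-coding MEG3, MEG8 and MEG9 rose by 3.90, 3.75 and 4.28 and BEGAIN and RTL1 by 2.05 and 4.18. PMEPA1 stood between ZBP1 (4.0) and NKILA (5.70), and COL1A1 beside SGCA (2.63) and TMEM92 (2.73). The sources used here do not state whether strand was used in counting, so an antisense gene such as COL4A2-AS1 (5.24) cannot be told apart from its partner. MEG8, MEG9, RTL1, ZBP1 and COL4A2-AS1 had mean untreated counts under 10 and means of 15.1 to 52.8 with TGFβ. Their log2 values thus depend on the pseudocount too. Falls in a run were MUC2, MUC5AC and MUC5B on chromosome 11 (1074874 to 1262172), the fibrinogen genes FGB, FGA and FGG on chromosome 4 (154562980 to 154612656) at -2.60, -3.27 and -2.91, and ADH4, ADH6 and ADH1C, also on chromosome 4 (99123658 to 99352746). FGB, FGA and FGG encode the 3 chains of 1 protein and fell by like factors. The longest run was of 7 PSG genes on chromosome 19 (42721642 to 43082701), which are near-identical copies, so reads can be shared between them and their counts are uncertain. Of the 141 genes in runs, 138 (97.9%) were called the same way in the edited line. The same held for 1895 (88.5%) of all 2142 genes that moved at least 4-fold in wild type cells. Those 2142 were drawn from all tested genes, with or without a RefSeq position. The edited libraries took part in the filter and in the shared estimate of spread, so this is no independent check of the runs.

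**Figure D4:**
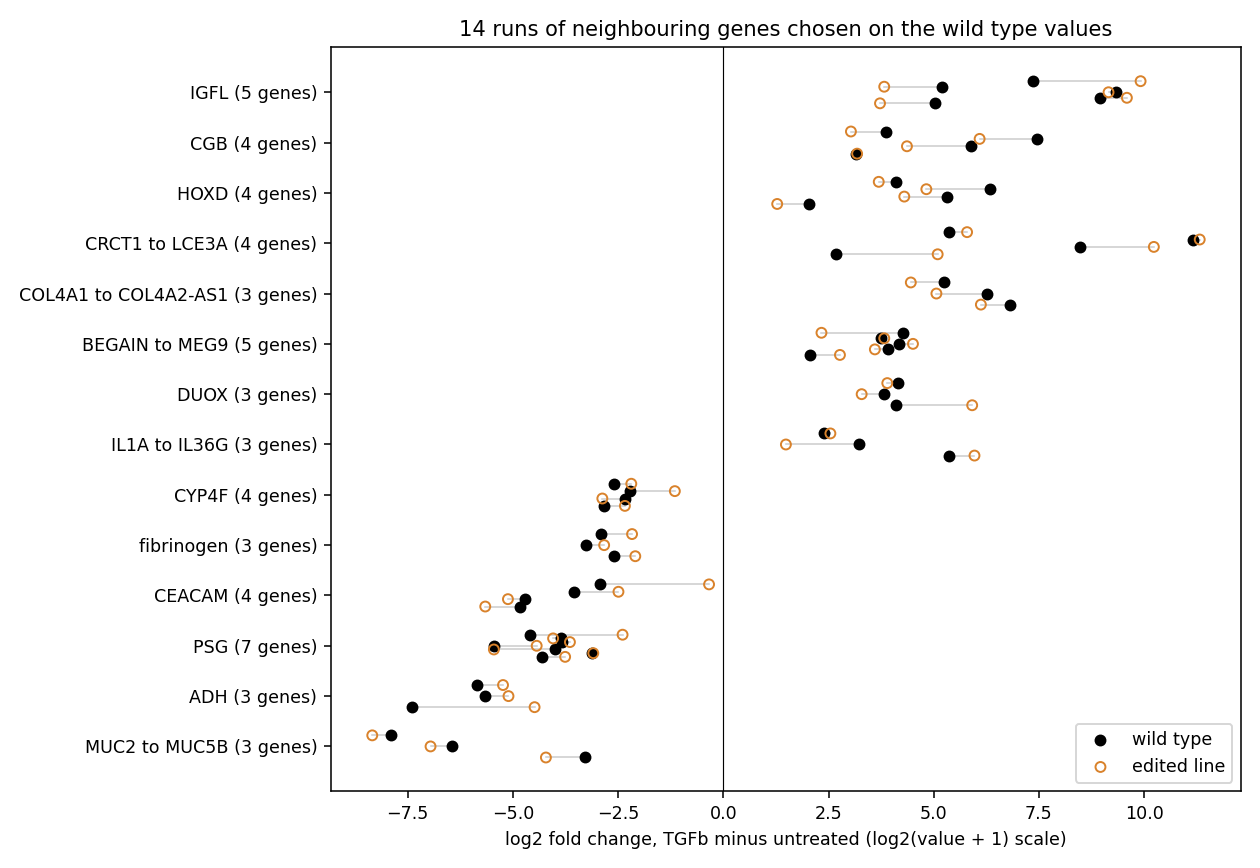
Log2 fold change (TGFβ minus untreated) of each gene of 14 runs of adjacent genes in chromosomal order, in wild type cells (black points) and in the edited line (open orange points). Within each run the black points lie on 1 side of 0 by construction, and the orange points of nearly all genes lie on the same side.

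The edited line has its own treated and untreated libraries, and the difference of the 2 responses was tested for each gene. It was called for 3395 of 20456 genes (16.6%), with the wild type value the higher in 1232 and the lower in 2163. Of the 5105 genes that moved at least 2-fold in wild type cells, 4965 had the same sign in the edited line and 987 (19.3%) differed in size, beside 2408 of the other 15351 (15.7%). The median rise of the 2-fold genes was 1.87 in wild type and 1.75 in edited cells and the median fall -1.63 and -1.50. These genes were chosen in wild type cells, so their wild type medians are set high by the choice. For COL1A1 and MUC5B the difference was -0.26 ± 0.12 (adjusted p = 0.17) and 0.44 ± 0.18 (adjusted p = 0.11), about 2 standard errors and not called, and for CDH1 it was 0.10 ± 0.08 (adjusted p = 0.46).

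MMP2 differed between the lines, with 10.84 ± 0.38 in wild type and 8.52 ± 0.38 in edited cells (adjusted p = 0.0077), and its untreated wild type counts rest on 5 reads. PAPPA2, a protease of IGF binding proteins, rose by 5.16 ± 0.21 in wild type cells and changed by 2.35 ± 0.21 in edited ones. COL22A1 (2.65 ± 0.83) and the microtubule kinase DCLK1 (2.19 ± 0.29) also had a higher value in wild type. The difference for the transporter SLC16A6 (2.18 ± 0.31) was positive because it fell less in wild type (-3.24 ± 0.22) than in edited cells (-5.42 ± 0.22). The call for COL22A1 was lost in 10 of the 22 settings tried for this difference, with 7 libraries left out in turn among them. In the other direction, large differences among genes with a mean of at least 100 over the 12 libraries included ADH4 (-2.91 ± 0.61), FOXS1 (-2.57 ± 0.77), IGFL1 (-2.55 ± 0.38), the imprinted non-coding H19 (-2.20 ± 0.38) and the water channel AQP4 (-2.12 ± 0.26), of which FOXS1 lost its call in 10 settings. For SNAI1, the gene whose site was edited, the response was smaller in wild type cells, 0.83 ± 0.13 against 1.45 ± 0.13 (adjusted p = 0.028). Among the lists, ER chaperones differed in 18 of 20 genes and had a median of 0.05 in wild type and -0.60 in edited cells. DNA replication genes differed in 25 of 37, with medians of 0.12 and 0.58.

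**Figure D5:**
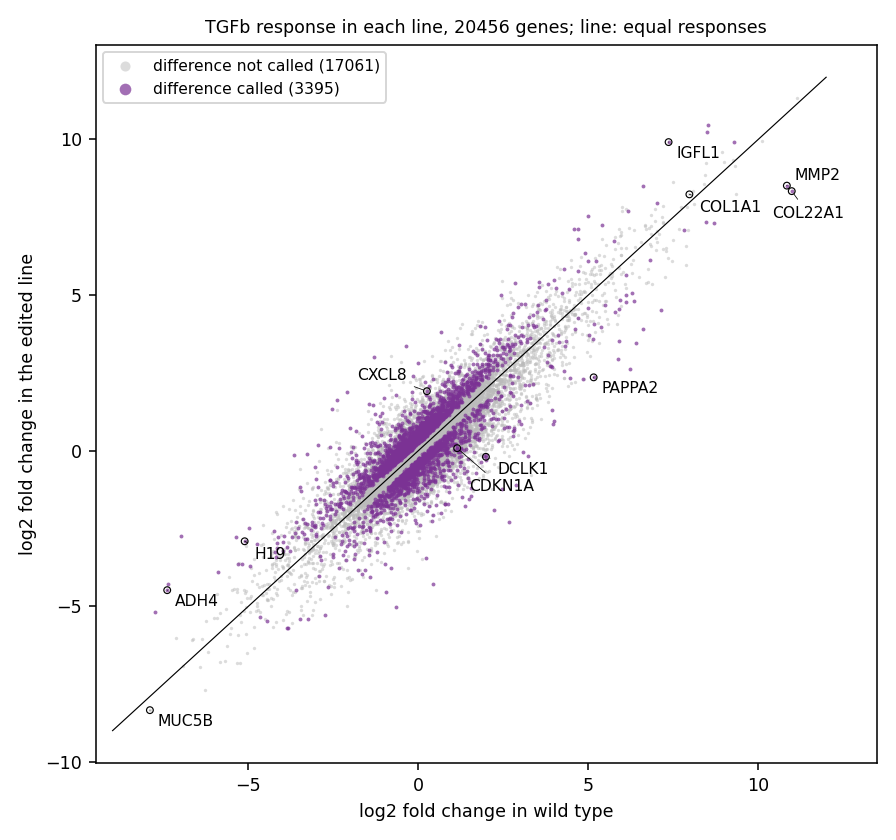
Log2 fold change of the 20456 genes in wild type cells (across) and in the edited line (up); the diagonal marks equal responses and purple points the 3395 genes whose difference was called. Most genes lie along the diagonal, and MMP2, COL22A1 and PAPPA2 lie to its right with larger rises in wild type cells.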

How the data were processed

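Total RNA was sequenced from 12 A549 libraries in 4 groups of 3. The submitters' processing notes name HISAT2, StringTie, featureCounts, DESeq2 and the build GRCh38.p14, with versions, roles, settings, annotation and use of strand not given in the sources used here. The values the authors deposited are a signal, read counts divided by a size factor per library: the size of 1 read could be recovered in each library, all values came out whole within 0.01 read, and the size factors equalled medians of ratios. The table holds 58830 entries, 28 of them gene names turned into dates.

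Genes that reached 10 in 3 or more libraries of the 12 were tested with limma 3.58.1 (R 4.3.3, trended variance) on log2(value + 1), with 4 group means, so all libraries share the estimate of spread, and Benjamini-Hochberg adjustment at 0.05 over 20456 genes. The difference between lines was a contrast of the same fit. Alternatives were pseudocounts of 0.5 and 10, no filter, a filter of 50, equal totals, quantile normalization, TMM factors, edgeR 4.0.16 and DESeq2 1.42.0 on the recovered reads, a replicate block, wild type groups alone and each library left out. The fits were tested on simulated counts in which 200 genes changed, far fewer than were called here, so the normalization was not checked by them. Of 1.5-fold changes 63.8% were recovered in the wild type contrast and 40% in the difference between lines, and of 2-fold changes 82.1% and 62.1%. False calls were 4.14% and 3.85% of calls.

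Genes named were the 4 markers; the 12 largest rises and falls among called genes with a mean from 100 up, no overlap and no clone name; the 8 largest gains and losses in mean count; up to 4 called members of each list with the largest change and a mean of at least 100, with up to 2 against its majority; the 5 largest differences between lines each way; and all SNAI, ZEB and TWIST genes. Some genes are not reported here and not every gene the rule gives is printed, and others are said to have been chosen after their values were seen. The members and the gene lists were chosen with earlier results of these data known, and lists are described by counts and medians without a test. Medians of lists with a gene at 0 in a group were the same with that gene at its bound. Older symbols were matched through RefSeq synonyms (16 genes). Promoter windows and positions are from RefSeq (GRCh38.p14). Intervals and floors cover counting error only.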

Additional observations from a re-analysis of the deposited data

Results flagged for a closer look

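For 32 of the 249 genes named by rule and reported here the TGFβ response differed between wild type and edited cells by at least 2-fold, in a test of the difference itself (limma, adjusted p under 0.05 over 20456 genes). Each value here is the wild type minus the edited log2 fold change. Among matrix genes and enzymes of matrix the wild type value was higher in MMP2 (2.33), COL22A1 (2.65), COL4A2 (1.21), COL5A3 (1.36), COL11A2 (1.14), the prolyl hydroxylase P4HA3 (1.39) and ITGB6 (1.11), and lower in COL21A1 (-1.02). Since COL5A3 fell in both lines, its positive value marks a smaller fall in wild type cells, and the same holds for the mucin folding enzyme AGR2 (1.04), the chaperone HSPA5 (1.03) and the transporter SLC16A6 (2.18).

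Among signals, receptors and regulators the wild type value was higher in PAPPA2 (2.80), DCLK1 (2.19), EPHB2 (1.33), IL11 (1.25) and HOXD10 (1.51), and lower in CXCL8 (-1.66), CCL2 (-1.56), IGFL1 (-2.55), TP63 (-1.53) and FOXS1 (-2.57). CCL2, CXCL8, IGFL1, TP63 and FOXS1 thus rose less in wild type cells. Among transporters and metabolic genes it was higher in PFKFB4 (1.01) and lower in ADH4 (-2.91), AQP4 (-2.12), CA9 (-1.32) and KCNJ15 (-1.15). The remaining genes were KRT80 (1.06), LCE3E (-1.75), R3HDML (-1.95), H19 (-2.20), SERPINA5 (-1.36) and SERPINA6 (-1.23). ADH4, AQP4, CA9, H19 and SERPINA6 fell further in wild type cells, and KCNJ15, LCE3E, R3HDML and SERPINA5 rose less. For MMP2, COL22A1, PAPPA2, FOXS1, IGFL1, LCE3E, R3HDML and ADH4 the mean normalized count was under 10 in at least 1 of the 4 groups, so these values depend on the pseudocount. The call was lost in some of the 22 settings tried for this difference in 8 of the genes: in 15 settings for R3HDML, 14 for LCE3E, 13 for CA9 and for HOXD10, 10 for COL22A1 and for FOXS1, 8 for COL21A1 and 6 for COL11A2.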

How the results depend on the processing

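Under all 23 alternatives the counts of genes that rose or fell in wild type cells stayed within 1.5 times the values given: 5402 to 6507 rose and 5873 to 6833 fell, with 5754 to 6295 and 5873 to 6387 when 1 library was left out. At least 2-fold rises numbered 2155 to 3431 and falls 1540 to 2490. The response differed between lines for 2468 (without edited treated replicate 3) to 4285 genes (without wild type treated replicate 3). edgeR called 12669 genes and shared 12443 same-direction calls with the 12624 of limma, and DESeq2 12883 and 12511. Replicate numbers gave little sign of pairing: same-numbered libraries of the 2 wild type groups deviated together with correlations of 0.10, 0.02 and 0.01. Untreated replicates 1 and 3 correlated best with their own number and untreated replicate 2 with treated replicate 3. These few correlations cannot exclude pairing. With a replicate block 6442 genes rose, 6478 fell and 3987 differed between lines. TWIST1, not called, ranged from -0.24 (without treated replicate 3) to 0.0872 (without treated replicate 2, adjusted p = 0.665) when 1 library was left out, and the cause of the change of sign was not tested. Calls in wild type cells were lost in some setting for ALDH1A1, COL21A1, CXCL8, KRT19, MUC3A and SNAI3, and line differences for CA9, COL11A2, COL21A1, COL22A1, FOXS1, HOXD10, LCE3E and R3HDML. List medians near 0 changed sign for receptors (-0.03 without untreated replicate 2), BMP and activin genes (0.03 without treated replicate 2, 0.01 without treated replicate 3), tight junctions (-0.10 with a filter of 50, -0.01 after quantile normalization), ribosomal proteins (-0.07 without treated replicate 1), interferon-stimulated genes (0.04 without untreated replicate 3), HOX genes and neuron markers. Of HOX genes, 5 fell, 10 after quantile normalization and 3 in the wild type groups alone or without untreated replicate 3. Where a group is at or near 0 reads, depth limits the fold change to a bound.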

Other observations

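Further gene lists not described above gave the following in wild type cells, with all named genes chosen after their values were seen. Proteoglycan and hyaluronan genes rose in the main: 17 of 23 tested members rose and 2 fell, with a median log2 fold change of 0.95. GPC4, a cell surface heparan sulfate proteoglycan, went from 56.8, 50.3 and 51.6 to 1049, 1097 and 1028 (4.30 ± 0.13), and the hyaluronan synthase HAS3 from 211, 303 and 245 to 1309, 1429.7 and 1382 (2.45 ± 0.14). Of ADAM and ADAMTS proteases, 15 of 22 tested members rose and 1 fell, with a median log2 fold change of 0.94. ADAM19 went from 264, 246 and 272 to 35344, 38054 and 41855 (7.20 ± 0.07). Of lysosome genes, 17 of 26 tested members rose and 2 fell, with a median log2 fold change of 0.32, with NPC2, a cholesterol carrier (2.49 ± 0.10), and the collagen-degrading cathepsin CTSK (1.70 ± 0.15) among the rises. Of antigen presentation genes, 11 of 16 tested members rose and 2 fell, with a median log2 fold change of 0.45, with the checkpoint ligand CD274 (1.47 ± 0.12) the largest rise among members with a mean of at least 100. The percentages over all genes were 30.8 higher and 30.9 lower.

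Complement and coagulation genes were divided: 6 of 26 tested members rose and 14 fell, with a median log2 fold change of -0.71. C4BPA, the α chain of the complement inhibitor C4BP, went from 984, 963 and 903 to 26.4, 16.3 and 16.8 (-5.55 ± 0.29) and its β chain C4BPB from 39.9, 34.6 and 41.9 to 531, 453 and 489 (3.63 ± 0.28), so the chains of 1 protein moved in opposite directions. Coagulation factor F7 fell (-5.13 ± 0.17) and its receptor, tissue factor F3, rose (2.19 ± 0.09). Of YAP and TEAD targets, 8 of 19 tested members rose and 7 fell, beside 30.8% and 30.9% of all genes. The median log2 fold change of this list was 0.21. CTGF went from 16607, 16244 and 16256 to 128636, 123949 and 119333 (2.92 ± 0.07) and ANKRD1, another target, from 2957, 3056 and 2734 to 226, 174 and 268 (-3.73 ± 0.15). Of MAPK feedback and AP-1 genes, 11 of 27 tested members rose and 12 fell, with a median log2 fold change of 0.06, with the phosphatase DUSP4 at -3.0 ± 0.05 and the AP-1 subunit JUNB at 2.18 ± 0.08. Of NOTCH genes, 10 of 19 tested members rose and 6 fell, with a median log2 fold change of 0.82, with the glycosyltransferase LFNG (3.84 ± 0.19) and the target HEY1 (3.21 ± 0.19) up and the receptor NOTCH3 (-1.88 ± 0.08) down. Of p53 targets, 15 of 25 tested members rose and 4 fell, with a median log2 fold change of 0.30, and the response differed between lines for 18 of them. Ribosomal protein genes hardly moved: 5 of 46 tested members rose and 0 fell, with a median log2 fold change of 0.04, but 22 rose without treated replicate 3, and 7 fell after quantile normalization.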
